A study of Mus musculus with 20 samples.

Results

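The comparison described here sets the livers of adult sons whose dams lived at 10 °C during gestation against those of sons whose dams lived at 30 °C. It rests on 5 arrays of 10 °C offspring and 5 arrays of 30 °C offspring, 1 array per animal, chosen by their titles. The members are the transcript clusters (the array's units, each a set of probes for 1 gene) that carry 1 gene symbol and whose mean log2 level over the 10 arrays lies above that of the negative control rows. There were 9700 such clusters, for 9672 genes, out of 22206 transcript clusters in the table. A further 9872 named clusters lay at or below the controls, and 2634 clusters had no symbol. The negative control rows averaged 4.5634 on the log2 scale, with Camk1g (4.5638) the nearest cluster above that level and Mx1 (4.5631) the nearest below it.

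All animals were male C57BL/6NCr mice of 4 to 5 months from wild-type dams. Before mating, dams of the 10 °C group had spent 2 weeks at that temperature and dams of the 30 °C group 3 weeks at theirs, and sires of both groups had spent 3 days at the temperature of the dams. Every litter moved to 23 °C on the day of delivery and the offspring lived there on standard chow. Groups of 5 arrays at 18 °C and at the 23 °C of the animal house, which served as the control, complete the series of 20 arrays and entered the fit. Acclimation time and exposure of the sires go with temperature and cannot be told apart from it. The labels name no litter, day or feeding state, so p-values measure the spread between these arrays, which littermates would narrow.

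In mice the warmer of these temperatures is close to thermoneutrality, while the colder one drives brown fat to burn fuel for heat, and the study's title links this maternal heat production to the glucose tolerance of sons. The adult liver sets blood glucose by making and releasing it, burns fatty acids in mitochondria and peroxisomes under the nuclear receptor PPARA, makes new fat under the glucose sensor ChREBP, and holds resident macrophages, the Kupffer cells. Expression values were log2 levels after RMA, in which 1 unit is a doubling. Each cluster was fitted in limma with 1 mean per group, and the adjusted p is the Benjamini-Hochberg value over all 22206 clusters. A cluster was called where the adjusted p was under 0.05.

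Between the coldest and the warmest gestation 0 of 9700 named clusters were called in limma (0%), and 0 of all 22206. At an unadjusted p under 0.05 stood 695 of the named clusters (7.16%), of which 360 were higher (3.71%) and 335 lower (3.45%) in 10 °C offspring. The ranges of the groups did not overlap in 99 clusters (1.02%), 57 of them higher and 42 lower in 10 °C offspring. The differences were small: their median was 0.01 with quartiles of -0.13 and 0.14, 51.5% lay above 0, and the median standard error (SE) of a difference was 0.18. Only 322 clusters (3.32%) differed by over 0.5 and 21 (0.216%) by over 1, of which 6 were higher and 15 lower in 10 °C offspring. The plot of difference against level shows that most clusters without overlap differed by less than 1.

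**Figure D1:**
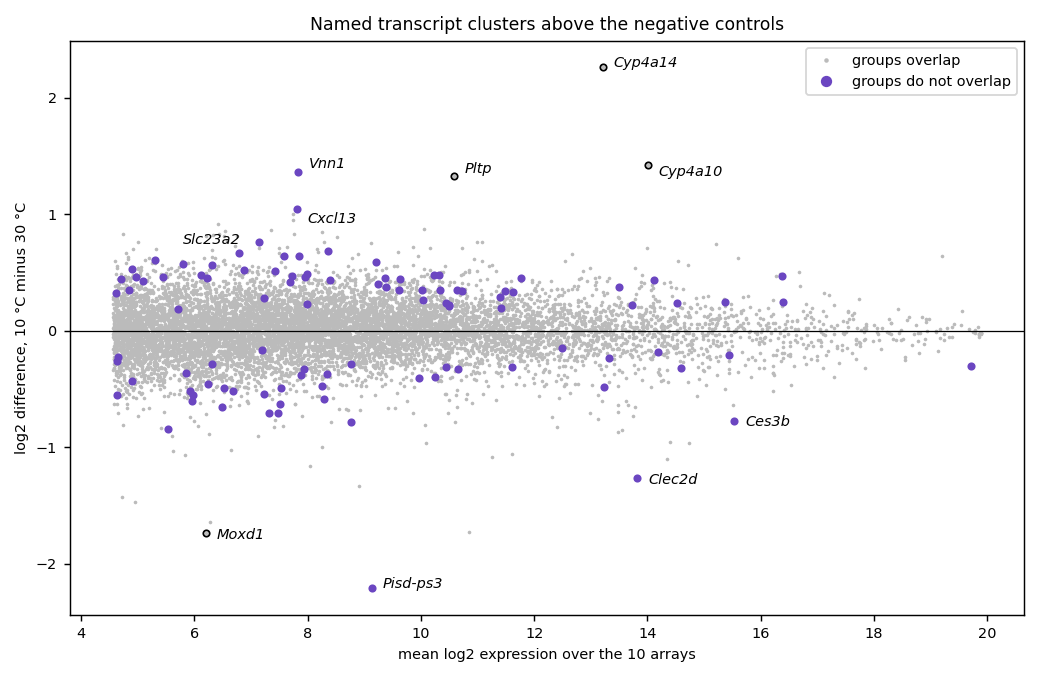
Log2 difference (10 °C minus 30 °C offspring) against the mean log2 expression over the 10 arrays for the 9700 named clusters above the negative controls. Filled purple points are the 99 clusters whose groups do not overlap, and open black circles mark other labelled genes. Among the filled points Pisd-ps3 and Clec2d lie lowest. Moxd1 (-1.74), whose groups overlap, lies below Clec2d, and Cyp4a14, whose groups also overlap, lies highest.

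Measures of array quality were compared over 8 quantities, of which 0 passed after adjustment. Any pair of the 10 arrays correlated at 0.988 to 0.993 over the clusters. Negative control rows averaged 4.53 ± 0.03 in 10 °C arrays and 4.59 ± 0.06 in 30 °C arrays (SD, n = 5 each, exact permutation p = 0.079). The background control rows averaged 3.71 ± 0.02 in 10 °C and 3.66 ± 0.06 in 30 °C arrays (exact p = 0.11). External spike-in control rows (ERCC) averaged 3.88 ± 0.11 in 10 °C arrays and 3.70 ± 0.08 in 30 °C arrays (exact permutation p = 0.024, adjusted p = 0.19 over 8 measures, with 0.0079 the smallest p that this design can give). The first principal component of all 20 arrays, with 14.6% of the variance, left the 10 °C and 30 °C groups overlapping (exact p = 0.88), as did the second, with 12.3% (exact p = 0.38). The tissue label held: hepatocyte markers averaged 18.38 in 10 °C and 18.42 in 30 °C arrays, and 0 of 13 measured monocyte and neutrophil markers and 0 of 15 measured pancreatic acinar markers lay above the negative controls. Of the muscle markers 1 of 13 lay above the controls, of the T and natural killer cell markers 1 of 19 (Cd4) and of the B cell markers 1 of 9 (Fcer2a).

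Promoter sequences are shown first for 3 genes described below, because they carry the core of the interferon-stimulated response element, the sequence bound by interferon regulatory factors and STAT complexes. Clec2d is the natural killer cell ligand with the second smallest p of the comparison, Ifit1 had the smallest p of the interferon response genes, and Irgm2 had the largest positive difference among the interferon-inducible GTPases. The motif searched was 2 copies of GAAA separated by any 2 bases, read on either strand (2 copies of TTTC on the other), within the 250 bases before each gene's start, in RefSeq promoters of build GRCm38.p6. All 3 genes lie on the forward strand, and capitals mark each match.
Clec2d (chr6:129180365-129180614): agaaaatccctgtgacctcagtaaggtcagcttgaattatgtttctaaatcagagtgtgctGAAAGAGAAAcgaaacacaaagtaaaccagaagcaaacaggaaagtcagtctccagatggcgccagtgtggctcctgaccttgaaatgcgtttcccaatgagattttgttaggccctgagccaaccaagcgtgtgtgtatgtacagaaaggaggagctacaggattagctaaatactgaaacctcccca
Ifit1 (chr19:34640639-34640888): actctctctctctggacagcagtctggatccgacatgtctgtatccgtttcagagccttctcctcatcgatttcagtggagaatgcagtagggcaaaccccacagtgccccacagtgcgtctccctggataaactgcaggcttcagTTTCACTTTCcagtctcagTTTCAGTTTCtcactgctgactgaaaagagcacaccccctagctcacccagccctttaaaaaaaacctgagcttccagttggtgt
Irgm2 (chr11:58214727-58214976): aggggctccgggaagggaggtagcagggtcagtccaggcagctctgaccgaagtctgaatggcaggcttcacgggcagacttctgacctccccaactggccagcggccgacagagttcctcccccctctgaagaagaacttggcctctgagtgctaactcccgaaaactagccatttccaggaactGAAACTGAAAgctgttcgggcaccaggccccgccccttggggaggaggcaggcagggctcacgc

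Clec2d holds 1 match, which begins 189 bases before the start, Irgm2 holds 1 that begins 64 bases before it, and Ifit1 holds 2, both on the opposite strand. A match is found in 253 of the 7916 named genes with a promoter entry (3.2%) and in 978 of all 32851 entries (2.98%). It is found in 9 of the 33 interferon response genes with an entry (27.3%) and in 7 of 7 interferon-inducible GTPases with one, namely Gbp2, Gbp3, Gbp7, Igtp, Irgm1, Irgm2 and Tgtp2. These matches describe the sequence and say nothing of binding.

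Of all named clusters Pisd-ps3, a pseudogene of the mitochondrial enzyme phosphatidylserine decarboxylase, came nearest to a call, and it was lower in 10 °C offspring. Its log2 level was 8.28, 7.32, 8.68, 8.22 and 7.65 in the 10 °C livers, against 10.39, 10.69, 9.60, 10.85 and 9.68 in the 30 °C livers. Every 10 °C liver lay below every 30 °C liver, with a gap of nearly 1 log2 unit between the groups. The difference was -2.21 ± 0.36 (SE, n = 5 per group, 4.64-fold lower, limma adjusted p = 0.0604). The adjusted p ran from 0.00119 to 0.383 when 1 array was left out. It passed the threshold in 2 of these 20 cases, without 23 °C animal 2 (0.0292) and without 23 °C animal 23 (0.00119), arrays that enter only through the shared estimate of the spread. Fitted on the 10 arrays alone, the adjusted p was 0.0415.

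Clec2d, a C-type lectin on cell surfaces that is the ligand of an inhibitory receptor of natural killer cells, had the next smallest p and was also lower in 10 °C offspring. Its level was 13.70, 13.55, 13.34, 12.64 and 12.71 in the 10 °C livers, against 14.04, 14.90, 14.62, 14.49 and 14.23 in the 30 °C livers. The groups did not overlap, and 10 °C animals 6 and 8 were the lowest. The difference was -1.27 ± 0.23 (SE, 2.41-fold lower, limma adjusted p = 0.180), and without 23 °C animal 23 the adjusted p was 0.0303. Clec2f, a neighbour of Clec2d in the same lectin gene cluster on chromosome 6, differed by -0.74 ± 0.18 (SE, adjusted p = 0.662), with values of 5.26 to 5.98 in 10 °C and 5.84 to 6.61 in 30 °C livers that overlap. The 2 genes are related in sequence, and whether their probes tell them apart was not tested. Of 15 measured ligands and receptors of this family 4 lay above the negative controls, and all 4 differences were below 0: those of Clec2h (-0.36) and Clec2g (-0.01) stood at an unadjusted p over 0.05.

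The other 10 of the 12 lower clusters with the smallest p all had an adjusted p of 0.662. Mlxipl encodes ChREBP, the transcription factor that turns on glycolytic and fat synthesis genes when glucose is high. Its level was 11.34 to 12.20 in the 10 °C livers, against 12.92, 12.61, 13.13, 12.19 and 12.54 in the 30 °C livers. The groups overlapped only at 30 °C animal 7, and 10 °C animal 6 was the lowest. The difference was -0.74 ± 0.19 (SE, n = 5 per group, limma adjusted p = 0.662). Ints1, a scaffold subunit of the Integrator complex that processes small nuclear RNAs, had 7.70 to 8.27 in 10 °C and 8.32 to 8.82 in 30 °C livers, without overlap (-0.59 ± 0.15 SE). Glcci1, named for its induction by glucocorticoids, had 6.80 to 7.16 in 10 °C and 7.24 to 7.81 in 30 °C livers, also without overlap (-0.54 ± 0.14 SE).

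Proteins of membrane traffic were among the same set. Yif1b, which works between the endoplasmic reticulum and the Golgi, differed by -0.60 ± 0.15 (SE), and Snx17, a sorting nexin that recycles receptors from endosomes, by -0.67 ± 0.17 (SE). In each the groups overlapped by 1 array, 10 °C animal 8 for Yif1b (10.63) and 10 °C animal 6 for Snx17 (8.62). Ppp1r14a, an inhibitor of myosin phosphatase known from smooth muscle, lies near Yif1b on chromosome 7 and differed by -0.91 ± 0.21 (SE). Its level was 4.89 to 5.48 in 10 °C and 5.44 to 6.42 in 30 °C livers. The remaining members of the 12 were Gm15446 (-0.79 ± 0.19 SE, no overlap), the zinc finger gene Zfp280c (-0.71 ± 0.18 SE, no overlap) and Vcpkmt, a lysine methyltransferase of the ATPase VCP (-0.63 ± 0.16 SE). The 10 °C mean of Vcpkmt, 4.32, lay under the negative controls, so its difference may be understated.

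The 12 higher clusters with the smallest p also had a limma adjusted p of 0.662 each. Stk40, which encodes a kinase-like protein, was highest in rank. Its level was 8.69, 8.49, 8.73, 8.78 and 8.81 in the 10 °C livers, against 8.45, 8.21, 8.08, 7.52 and 7.84 in the 30 °C livers. The 10 °C values lay close together and above all 30 °C values, and the difference was 0.68 ± 0.15 (SE, n = 5 per group, adjusted p = 0.662). Dnaja2, a J-domain co-chaperone of Hsp70, had 7.80, 7.81, 7.98, 8.18 and 7.71 in the 10 °C livers, against 7.32, 7.53, 7.15, 6.84 and 7.48 in the 30 °C livers. Its groups did not overlap either (0.64 ± 0.14 SE). Slc23a2, a transporter that carries vitamin C into cells, had 7.07 to 7.97 in 10 °C and 6.47 to 6.96 in 30 °C livers (0.76 ± 0.18 SE). The tRNA-modifying enzyme Dtwd1 (0.56 ± 0.14 SE), the RNA helicase Ddx52 (0.59 ± 0.15 SE) and Herpud2, a relative of the endoplasmic reticulum stress protein Herpud1 (0.45 ± 0.12 SE), likewise did not overlap. The plot of the 12 leading genes by array shows how narrow these gaps were beside the spread within the groups.

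**Figure D2:**
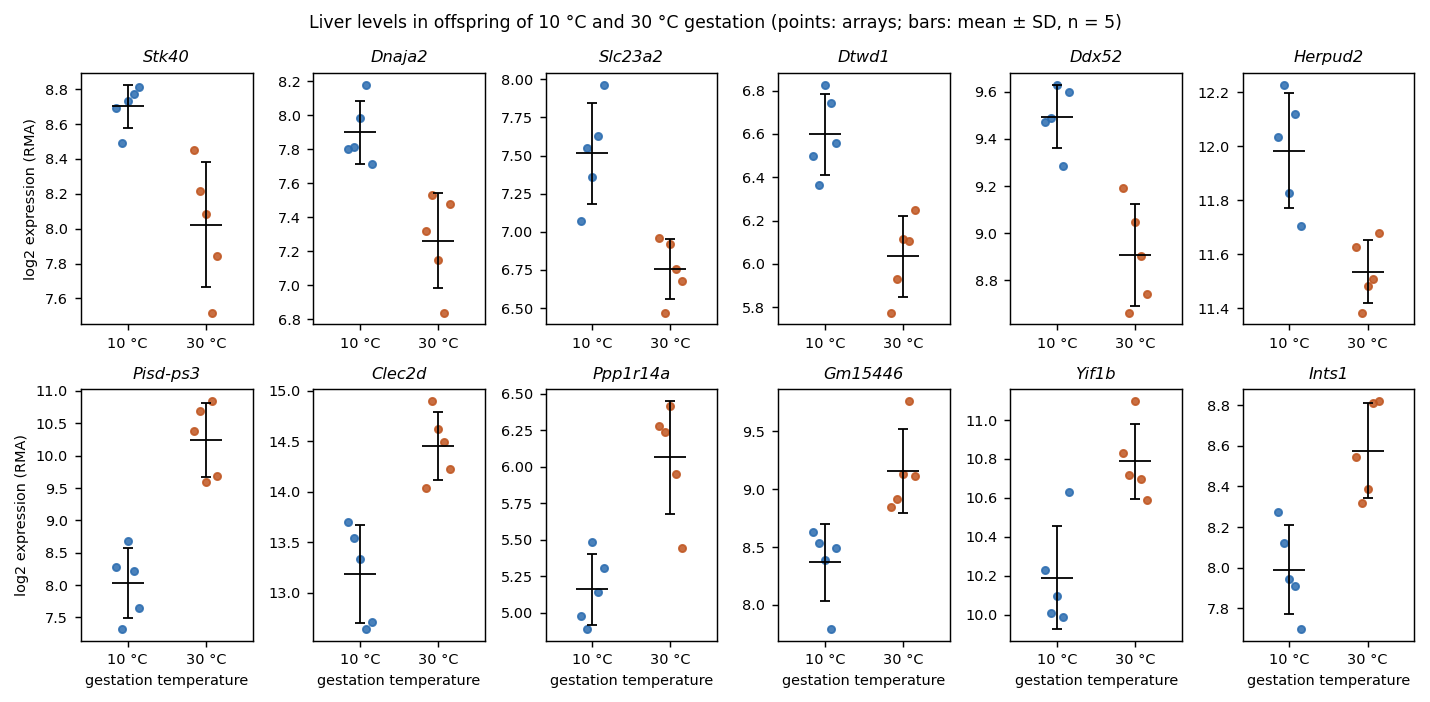
Log2 expression of the 6 higher (top row) and 6 lower (bottom row) clusters with the smallest p, in 10 °C and 30 °C offspring. Points are arrays and bars the mean ± SD of 5. All 10 °C points lie above the 30 °C points in the 6 upper panels, and below them in the lower panels except in Ppp1r14a and Yif1b.

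Cxcl13, the chemokine that draws B cells into lymphoid follicles, had the largest difference of these 12. Its level was 8.58, 8.08, 8.50, 8.77 and 7.74 in the 10 °C livers, against 6.98, 7.23, 7.20, 7.70 and 7.31 in the 30 °C livers. The groups met without overlap between 10 °C animal 8 and 30 °C animal 7, and the difference was 1.05 ± 0.28 (SE, 2.07-fold higher, limma adjusted p = 0.662). Of the B cell markers only Fcer2a (-0.31) lay above the negative controls. The other members were the rhomboid-like protein Rhbdd3 (0.61 ± 0.16 SE), the transcription factor Klf11 (0.83 ± 0.23 SE), the zinc finger gene Zfp784 (0.66 ± 0.18 SE), Ino80c, a subunit of the INO80 chromatin remodeller (0.64 ± 0.18 SE), and Ormdl1, a regulator of sphingolipid synthesis (0.55 ± 0.15 SE). Each of these overlapped between the groups. The 30 °C means of Klf11 (4.32) and Zfp784 (4.46) lay under the negative controls.

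Among clusters without overlap, the largest differences that were not yet named were those of Vnn1 (1.36 ± 0.47 SE), Ly86 (0.66 ± 0.20 SE) and Cldn2 (0.64 ± 0.18 SE) above 0. Ly86 is the secreted partner of the B cell and macrophage receptor Cd180, and its level was 6.75 to 7.52 in 10 °C against 6.28 to 6.61 in 30 °C livers. Cldn2 is a tight junction protein that lets cations and water pass, with 8.03 to 8.31 in 10 °C against 7.13 to 7.95 in 30 °C livers. Below 0 were Itgb3bp (-0.84 ± 0.38 SE), a centromere protein, the carboxylesterase Ces3b (-0.78 ± 0.22 SE) and Foxa3 (-0.71 ± 0.26 SE), a transcription factor of hepatocyte genes. Foxa3 had 6.37, 6.80, 7.25, 7.22 and 7.19 in the 10 °C livers, against 7.88, 7.91, 7.55, 7.41 and 7.63 in the 30 °C livers. Their limma adjusted p lay between 0.662 and 0.719.

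The groups at 18 °C and 23 °C, which entered the choice of these genes through the shared spread and not through their means, show how the levels ran across all 4 temperatures. Of the 12 lower clusters, 8 had means in the order of temperature, and of the 12 higher clusters 3 did. The 10 °C mean was the most extreme of the 4 in 11 of the 12 lower clusters, Glcci1 being the exception, and in 12 of the 12 higher ones, an excess that the choice by this contrast favours. Pisd-ps3 averaged 8.03 ± 0.54, 9.78 ± 0.25, 10.22 ± 0.98 and 10.24 ± 0.57 at 10, 18, 23 and 30 °C (SD, n = 5 each). The 3 warmer groups did not differ beyond their spread, apart from 23 °C animal 23, which at 8.64 fell among the 10 °C livers. The same animal was the lowest 23 °C liver for Clec2d, at 13.34, and that lectin averaged 13.19 ± 0.49, 14.12 ± 0.25, 14.16 ± 0.46 and 14.46 ± 0.34 from cold to warm.

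Mlxipl means climbed with temperature, at 11.94 ± 0.35, 12.16 ± 0.28, 12.62 ± 0.15 and 12.68 ± 0.36 from 10 to 30 °C (SD). The largest step lay between 18 °C and 23 °C. Neighbouring groups overlapped apart from 18 °C and 23 °C, where the highest 18 °C liver (12.48) lay just below the lowest 23 °C liver (12.49). Stk40 ran down with warmth, at 8.70 ± 0.12, 8.36 ± 0.08, 8.34 ± 0.18 and 8.02 ± 0.36. Dnaja2 stood apart at 10 °C alone, with 7.90 ± 0.18 against 7.35 ± 0.15, 7.20 ± 0.15 and 7.26 ± 0.28 at the warmer temperatures. Cxcl13 averaged 8.33 ± 0.42 and 8.19 ± 0.80 at the colder temperatures of 10 and 18 °C, against 7.19 ± 0.33 and 7.29 ± 0.26 at 23 and 30 °C. These are levels set side by side, with no test beyond the contrast of 10 °C with 30 °C.

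**Figure D3:**
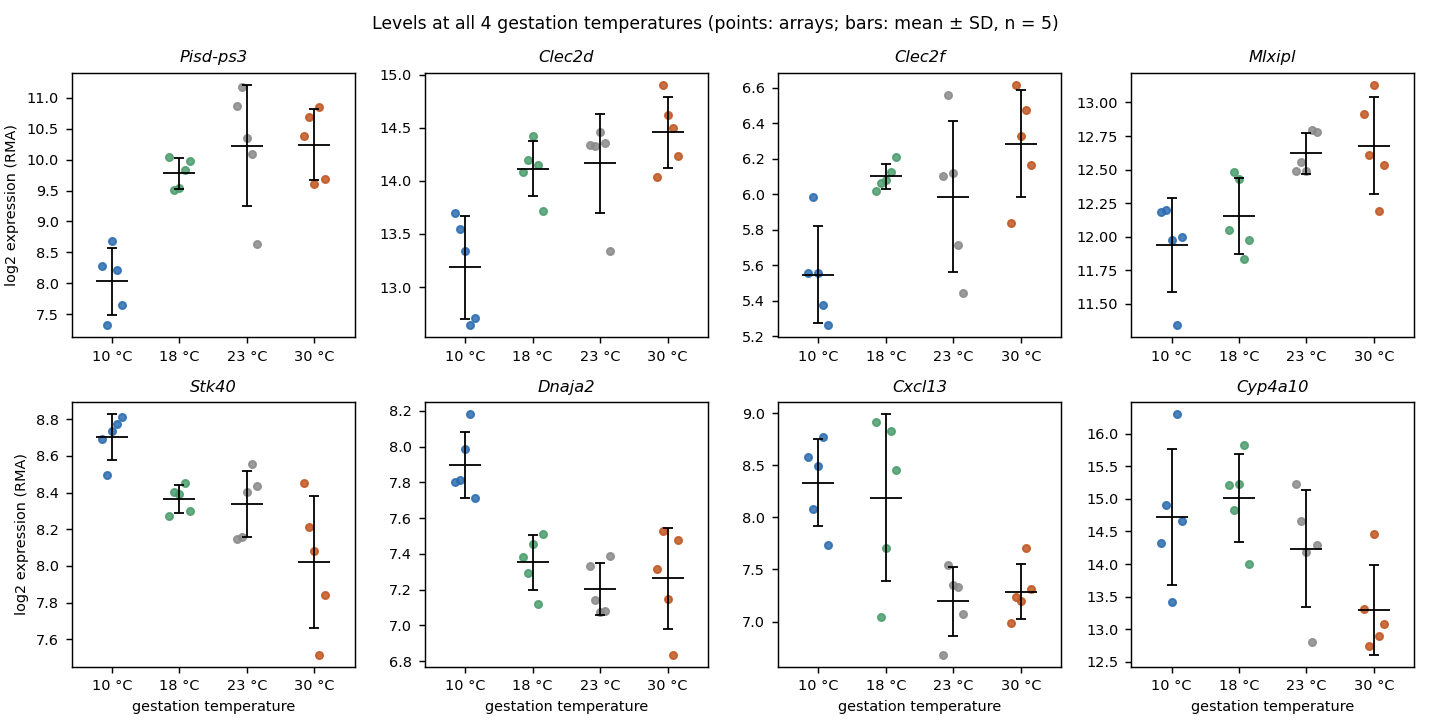
Log2 expression of 8 genes at gestation temperatures of 10, 18, 23 and 30 °C. Points are arrays and bars the mean ± SD of 5. Pisd-ps3 is low in all 10 °C livers and in 1 liver of the 23 °C group, Mlxipl climbs over the 4 temperatures, and Cyp4a10 is spread widely within each group.

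Gene groups are described by counts and medians over lists, to be read against all 9700 clusters, of which 51.5% were higher and whose median was 0.01. At an unadjusted p under 0.05 stood 7.16% of all these clusters, 3.71% higher and 3.45% lower, and 1.02% did not overlap. In the 55 lists together 0 members were called. The plot of list medians shows that most lists stayed within the quartiles of all clusters, and that those of the clock, Kupffer cells, PPARA targets, male-biased genes, periportal and cholangiocyte markers, ribosomal proteins, fatty acid oxidation and interferon genes lay outside them.

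**Figure D4:**
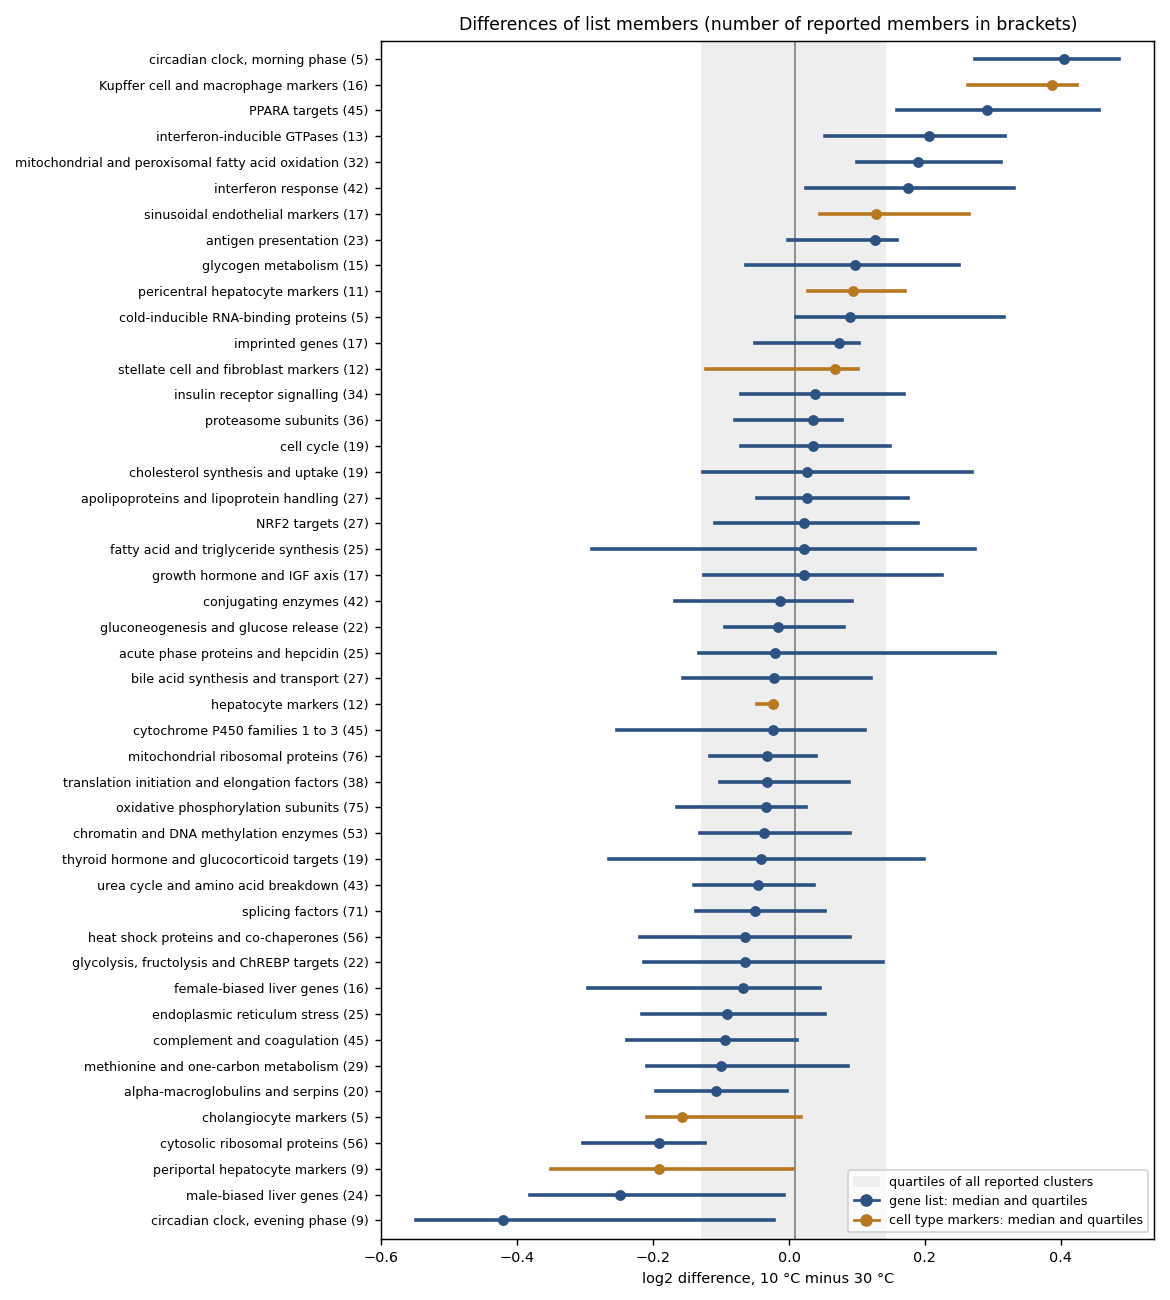
Median (point) and quartiles (bar) of the log2 difference, 10 °C minus 30 °C, over the members of each gene list above the negative controls, for lists with 5 or more. The grey band holds the quartiles of all 9700 clusters. The evening clock genes (-0.42) and the morning clock genes (0.41) mark the ends.

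Genes that burn fatty acids were higher on balance in 10 °C offspring. Of 45 PPARA targets above the negative controls 40 were higher and 5 lower, with a median difference of 0.29. At an unadjusted p under 0.05 stood 9, all higher (3.71% of all clusters), and 2 did not overlap (1.02% of all). The fatty acid hydroxylase Cyp4a10 had 14.32, 14.90, 13.42, 16.30 and 14.66 in the 10 °C livers, against 13.31, 12.74, 14.46, 12.89 and 13.08 in the 30 °C livers. Its groups overlapped, with 10 °C animal 6 far above the rest (1.42 ± 0.46 SE, limma adjusted p = 0.662). The related Cyp4a14 had 12.17 to 16.79 in the 10 °C livers with a median of 14.41, against 11.03, 11.41, 12.78, 10.85 and 14.31 in the 30 °C livers (2.26 ± 0.82 SE, adjusted p = 0.680). It spread over several log2 units within each group.

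Vnn1, a pantetheinase that recycles the vitamin of coenzyme A, was the PPARA target with the clearest gap. It had 8.31, 8.78, 7.60, 9.97 and 7.93 in the 10 °C livers, against 7.49, 7.32, 7.42, 6.53 and 7.01 in the 30 °C livers (1.36 ± 0.47 SE, adjusted p = 0.677). Again animal 6 was the highest. The lipid droplet proteins Plin2 (0.56 ± 0.22 SE) and Fitm2 (0.64 ± 0.25 SE) differed in the same direction with adjusted p = 0.691. Over the whole list, the mean deviation from the 10-array mean was 0.20, 0.21, -0.24, 0.86 and -0.06 in 10 °C animals 2, 4, 5, 6 and 8. It was -0.24, -0.13, -0.02, -0.44 and -0.12 in 30 °C animals 4 to 8. The groups overlapped, and without 10 °C animal 6 the list's median difference was 0.12.

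The enzymes of mitochondrial and peroxisomal fatty acid oxidation, which share members with the PPARA list, were higher in 28 of 32 cases with a median of 0.19. At an unadjusted p under 0.05 stood 3, all higher (3.71% of all clusters). These were the peroxisomal reductase Decr2 (0.42 ± 0.17 SE) and the peroxisomal thiolases Acaa1a (0.37 ± 0.16 SE) and Acaa1b (0.54 ± 0.24 SE), with a limma adjusted p of 0.691 to 0.719. Acaa1a had 13.47 to 13.86 in 10 °C and 13.04 to 13.46 in 30 °C livers, so that its groups met without overlap. Acaa1a and Acaa1b are close copies whose probes may not tell them apart. Ehhadh, the bifunctional enzyme of peroxisomal oxidation, differed by 0.41 ± 0.22 (SE) and Crot, which exports shortened acyl chains from peroxisomes, by 0.38 ± 0.22 (SE). Without 10 °C animal 6 the list's median was 0.09. Cpt1a, the gate of fatty acid entry into mitochondria, differed by 0.38 ± 0.22 (SE, adjusted p = 0.782), and Pdk4, the kinase that shuts off pyruvate oxidation, by 0.82 ± 0.40 (SE, adjusted p = 0.747).

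Fat and sterol synthesis genes were split in direction. Of 25 genes of fatty acid and triglyceride synthesis 13 were higher and 12 lower, with a median of 0.02, and of 19 genes of cholesterol synthesis and uptake 10 were higher and 9 lower, with a median of 0.03. The spread lay between animals. The mean deviation of the fatty acid list was 0.15, 0.53, -0.08, -0.88 and 0.23 in 10 °C animals 2, 4, 5, 6 and 8, and that of 30 °C animals 4 to 8 was -0.39, -0.75, 0.44, 0.06 and 0.70. For the cholesterol list, 10 °C animal 6 stood at -1.61 and 30 °C animal 5 at -1.81, while the other 8 livers lay between -0.27 and 0.91. The median of this list was 0.46 with 10 °C animal 6 left out and -0.36 with 30 °C animal 5 left out, and its sign also turned when any of 10 °C animals 4, 5 and 8 or 30 °C animal 4 was left out. Fasn, fatty acid synthase, ran over 10.25 to 14.31 in 10 °C and 11.83 to 14.69 in 30 °C livers (-0.47 ± 0.71 SE, limma adjusted p = 0.943). Scd1, the desaturase that makes oleate, had 19.60, 19.62, 19.20, 19.65 and 19.57 in the 10 °C livers, against 17.58, 18.24, 19.65, 19.16 and 19.81 in the 30 °C livers. It lay near the highest values of the table in 10 °C offspring and spread more widely in 30 °C offspring (0.64 ± 0.28 SE, adjusted p = 0.719).

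Genes of glucose metabolism, the theme of the study's title, had small median differences as lists, while some single genes had wide standard errors. Of 22 genes of gluconeogenesis and glucose release 9 were higher and 13 lower, with a median of -0.02. Pck1, which commits carbon to gluconeogenesis, had 16.65 to 17.81 in 10 °C and 16.38 to 17.53 in 30 °C livers (0.32 ± 0.28 SE, limma adjusted p = 0.872). G6pc, which frees glucose for release, had 16.91, 16.16, 15.16, 15.58 and 15.73 in the 10 °C livers, against 13.73, 16.56, 16.47, 15.49 and 14.17 in the 30 °C livers (0.62 ± 0.45 SE, adjusted p = 0.841). The 10 °C values fell within the range of the 30 °C values save for animal 2. Gpd2, the mitochondrial glycerol phosphate dehydrogenase, differed by 0.53 ± 0.21 (SE, adjusted p = 0.691). Ppargc1a, a coactivator of gluconeogenic and oxidative genes, differed by 0.24 ± 0.33 (SE, adjusted p = 0.935).

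In the list of glycolysis, fructolysis and ChREBP targets 8 of 22 were higher and the median was -0.07, with Mlxipl as the member of smallest p. Txnip, a glucose-induced inhibitor of thioredoxin and a known ChREBP target, differed the other way, with 10.94 to 11.85 in 10 °C and 10.25 to 11.31 in 30 °C livers (0.60 ± 0.24 SE, limma adjusted p = 0.691). In insulin receptor signalling 19 of 34 genes were higher, with a median of 0.04. Insr, the insulin receptor, had 14.21 to 14.40 in 10 °C and 14.03 to 14.51 in 30 °C livers (0.04 ± 0.12 SE), and Irs2, its main substrate in the fasted liver, differed by 0.25 ± 0.41 (SE). Pik3ca, the catalytic subunit of PI3 kinase, differed by 0.36 ± 0.13 (SE, adjusted p = 0.683) and Ptpn1, a phosphatase that switches the receptor off, by 0.39 ± 0.18 (SE, adjusted p = 0.725). Glycogen genes were higher in 10 of 15 cases (median 0.10), with the phosphorylase kinase subunit Phkb at -0.40 ± 0.15 (SE, adjusted p = 0.683).

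Ribosomal proteins of the cytosol were lower in 53 of 56 cases, with a median difference of -0.19. At an unadjusted p under 0.05 stood 17, all lower (3.45% of all clusters), and 2 did not overlap (1.02% of all). Rpsa, a protein of the small subunit, had 11.59, 11.76, 11.81, 12.01 and 11.82 in the 10 °C livers, against 12.33, 11.84, 12.16, 12.94 and 12.52 in the 30 °C livers (-0.56 ± 0.16 SE, limma adjusted p = 0.662). The groups overlapped by 1 array on each side. Rps16 (-0.43 ± 0.14 SE), Rpl37a (-0.39 ± 0.13 SE), Rps24 (-0.42 ± 0.14 SE) and Rpl36a (-0.44 ± 0.15 SE) were next, with adjusted p of 0.662 to 0.677. Over the list the mean deviation was -0.23, -0.13, -0.05, -0.05 and -0.07 in the 10 °C animals, against 0.03, 0.03, 0.05, 0.26 and 0.15 in the 30 °C animals. Every 10 °C liver lay below every 30 °C liver, and 30 °C animals 7 and 8 stood highest.

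The list's mean level was 12.95 ± 0.08, 12.92 ± 0.06, 13.09 ± 0.10 and 13.16 ± 0.10 at 10, 18, 23 and 30 °C (SD over arrays, n = 5 each), so the order of the 2 colder groups was not that of temperature. Mitochondrial ribosomal proteins were lower in 44 of 76 cases with a median of -0.03, led by Mrpl20 (-0.40 ± 0.14 SE, no overlap) and Mrpl24 (-0.36 ± 0.14 SE). At an unadjusted p under 0.05 stood 5 of them, all lower (3.45% of all clusters). Subunits of oxidative phosphorylation were lower in 48 of 75 cases with a median of -0.03. Of these subunits 5 stood at an unadjusted p under 0.05, all lower (3.45% of all clusters). Among them were the ATP synthase subunits Atp5e (-0.46 ± 0.18 SE, limma adjusted p = 0.683) and Atp5h (-0.38 ± 0.16 SE). With the level of the background rows as a covariate the median was -0.20 for cytosolic ribosomal proteins and 0.0022 for oxidative phosphorylation. Spike-in rows averaged higher in 10 °C arrays by the values given above, though below the negative control rows in both groups. The part of the spike-in rows in these differences was not tested.

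Interferon response genes were higher in 32 of 42 cases, with a median difference of 0.17. At an unadjusted p under 0.05 stood 8, all higher (3.71% of all clusters), and 0 were without overlap (1.02% of all). A further 14 measured genes of this list lay under the negative controls, and with them the median was 0.0997. Ifit1, which binds foreign RNA and whose promoter holds 2 copies of the motif printed above, had 5.70, 5.38, 5.71, 5.08 and 5.78 in the 10 °C livers, against 4.71, 5.15, 5.02, 4.74 and 5.15 in the 30 °C livers. The groups overlapped only through 10 °C animal 6 (0.58 ± 0.16 SE, limma adjusted p = 0.662). Irf7, the factor that amplifies interferon production, had 8.49, 8.58, 9.09, 8.53 and 8.72 in the 10 °C livers, against 8.78, 7.40, 8.10, 7.64 and 7.25 in the 30 °C livers. Here 30 °C animal 4 was as high as the 10 °C livers (0.85 ± 0.26 SE, adjusted p = 0.662).

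Usp18, a brake on interferon receptor signalling (0.73 ± 0.24 SE), Rtp4 (0.50 ± 0.17 SE) and Samhd1, which depletes nucleotides (0.43 ± 0.14 SE), followed with limma adjusted p of 0.662 to 0.673. Over the list the mean deviation was 0.14, 0.09, 0.18, -0.07 and 0.10 in the 10 °C animals, against 0.01, -0.35, 0.03, -0.05 and -0.09 in the 30 °C animals. Without 30 °C animal 5, the lowest, the list's median was 0.09. The list's mean level at 10, 18, 23 and 30 °C was 7.88 ± 0.09, 7.93 ± 0.09, 7.76 ± 0.06 and 7.70 ± 0.15 (SD).

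Interferon-inducible GTPases, which attack the vacuoles of intracellular microbes, were higher in 11 of 13 cases with a median of 0.21. Irgm2 had 9.94, 9.97, 9.44, 9.84 and 9.05 in the 10 °C livers, against 9.44, 8.17, 9.16, 9.18 and 9.58 in the 30 °C livers (0.54 ± 0.28 SE, limma adjusted p = 0.765). Its groups overlapped widely, and 30 °C animal 5 was the lowest. The member with the smallest p went the other way: Gbp8 had 6.28 to 7.01 in 10 °C and 6.77 to 7.58 in 30 °C livers (-0.53 ± 0.16 SE, adjusted p = 0.662). The guanylate-binding proteins Gbp9 (0.36 ± 0.18 SE), Gbp7 (0.32 ± 0.18 SE) and Gbp3 (0.21 ± 0.14 SE) were higher in 10 °C offspring at unadjusted p over 0.05. Antigen presentation genes were higher in 17 of 23 cases with a median of 0.13, and 0 of them stood at an unadjusted p under 0.05.

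Markers of Kupffer cells and macrophages moved in the same direction as the interferon genes. Of 17 measured markers 16 lay above the negative controls and 15 of these were higher in 10 °C offspring, with a median difference of 0.39. The median was 0.26 without 10 °C animal 5 and 0.26 with the level of the background rows as a covariate. C1qa, a subunit of complement component C1q made by macrophages, had 8.54, 9.38, 8.87, 8.81 and 8.98 in the 10 °C livers, against 9.05, 8.56, 8.43, 8.40 and 7.84 in the 30 °C livers (0.46 ± 0.20 SE, limma adjusted p = 0.719). Vsig4, a complement receptor of Kupffer cells, had 8.41, 8.21, 9.29, 8.51 and 8.43 in the 10 °C livers, against 8.40, 8.23, 8.20, 7.90 and 7.93 in the 30 °C livers (0.43 ± 0.20 SE, adjusted p = 0.725). In both genes 30 °C animal 4 lay among the 10 °C livers. The mean level of the list per array was 8.12 to 8.63 in 10 °C and 7.70 to 8.54 in 30 °C livers, and Marco (-0.07) was the 1 marker that was lower. Fewer cells of a type and less RNA per cell cannot be told apart in such tissue samples. The part of these markers in the interferon, Cxcl13 and Ly86 differences was not tested.

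Markers of sinusoidal endothelium were higher in 14 of 17 cases, with a median of 0.13. Oit3 was the marker whose groups did not overlap (0.48 ± 0.18 SE, limma adjusted p = 0.683), while Stab2, a scavenger receptor of the same cells, was lower (-0.31 ± 0.13 SE, adjusted p = 0.695). Pericentral hepatocyte markers were higher in 9 of 11 cases (median 0.09) and periportal ones in 3 of 9 (median -0.19), with 0 at an unadjusted p under 0.05 in either list. Stellate cell markers had a median of 0.07, with Reln, a glycoprotein of these cells, at 0.47 ± 0.17 (SE, adjusted p = 0.677). Among 3 erythroid markers above the negative controls Alas2, the first enzyme of haem synthesis in red cells, differed by -0.48 ± 0.16 (SE, adjusted p = 0.673).

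Male-biased liver genes, which depend on the pulsed growth hormone of males, were lower in 18 of 24 cases, with a median of -0.25. At an unadjusted p under 0.05 stood 4, all lower (3.45% of all clusters). Gstp2, a glutathione transferase, had 16.19, 15.35, 16.25, 16.33 and 15.70 in the 10 °C livers, against 16.35, 16.86, 16.43, 16.78 and 15.97 in the 30 °C livers (-0.52 ± 0.20 SE, limma adjusted p = 0.683). Its near copy Gstp1 differed by -0.32 ± 0.17 (SE), and their probes may not tell them apart. Moxd1 had the widest spread, with 4.89, 4.36, 4.68, 4.91 and 7.87 in the 10 °C livers, against 9.91, 7.96, 6.76, 5.37 and 5.39 in the 30 °C livers (-1.74 ± 0.72 SE, adjusted p = 0.695). In 10 °C livers other than animal 8 it lay near the negative controls, and 30 °C animals 7 and 8 were little higher.

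The transporter Slc22a28 (-0.44 ± 0.19 SE) and the complement subunit C8b (-0.49 ± 0.22 SE) were the other male-biased genes at an unadjusted p under 0.05. The list's mean deviation was -0.19, -0.55, -0.14, -0.08 and 0.28 in the 10 °C animals, against 0.40, 0.46, 0.16, 0.14 and -0.48 in the 30 °C animals. Animal 8 of each group thus lay with the other group, and the median was -0.10 without 30 °C animal 5 and -0.13 without 10 °C animal 4. Female-biased genes were lower in 9 of 16 cases with a median of -0.07. In the growth hormone and IGF list 10 of 17 were higher (median 0.02), and the differences ran from -1.73 to 0.76. The growth hormone signal transducer Stat5a differed by 0.44 ± 0.19 (SE, limma adjusted p = 0.712). Igf1 had 18.46 to 18.79 in 10 °C and 18.52 to 18.89 in 30 °C livers (-0.13 ± 0.12 SE, adjusted p = 0.885).

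Clock genes lay at both ends of the lists, with few members and a wide spread. Of 9 genes that peak in the evening 7 were lower in 10 °C offspring (median -0.42), and all 5 genes of the opposite phase were higher (median 0.41). Dbp, a clock output factor, had 11.60, 15.41, 10.52, 11.83 and 14.87 in the 10 °C livers, against 15.42, 10.44, 13.77, 13.27 and 14.06 in the 30 °C livers (-0.55 ± 1.11 SE, limma adjusted p = 0.959). It thus ran over about 5 log2 units within each group. Arntl, the partner of Clock, had 8.62, 6.37, 8.83, 8.09 and 6.21 in the 10 °C livers, against 4.83, 8.67, 7.51, 7.94 and 7.81 in the 30 °C livers (0.27 ± 0.88 SE, adjusted p = 0.981). Animals 4 and 8 of the 10 °C group and animal 4 of the 30 °C group had high Dbp with low Arntl, and the labels give no time of death.

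Other clock genes were Per2 (-0.59 ± 0.51 SE), Per3 (-0.64 ± 0.66 SE), Cry1 (0.41 ± 0.21 SE) and Nfil3, a repressor of the evening genes (0.83 ± 0.40 SE), the 1 member at an unadjusted p under 0.05 (limma adjusted p = 0.734). A score of evening minus morning genes averaged -0.36 ± 1.49 in 10 °C and 0.31 ± 1.25 in 30 °C arrays (SD, n = 5 each, exact permutation p = 0.45). The evening list's median turned to 0.034 when 10 °C animal 5 was left out and to 0.10 when 30 °C animal 4 was. It was -0.19 with 10 °C animal 6 removed, and -0.21 with 10 °C animal 2 removed. Adding the background level to the model made it -0.90, weighting the arrays made it -0.12, and adding the clock score made it 0.17. That score is built from the genes of the evening and morning lists, so the shifts of both lists with it are in part built in. The morning list's median was 0.12 with 10 °C animal 5 left out and 0.63 with 10 °C animal 8 left out, 0.19 with the clock score in the model and 1.01 with the background level in it. With the clock score in the model the medians of PPARA targets, male-biased genes, ribosomal proteins, interferon genes and Kupffer markers kept their direction. This compares signs only, and the part of clock phase in these differences was not tested.

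**Figure D5:**
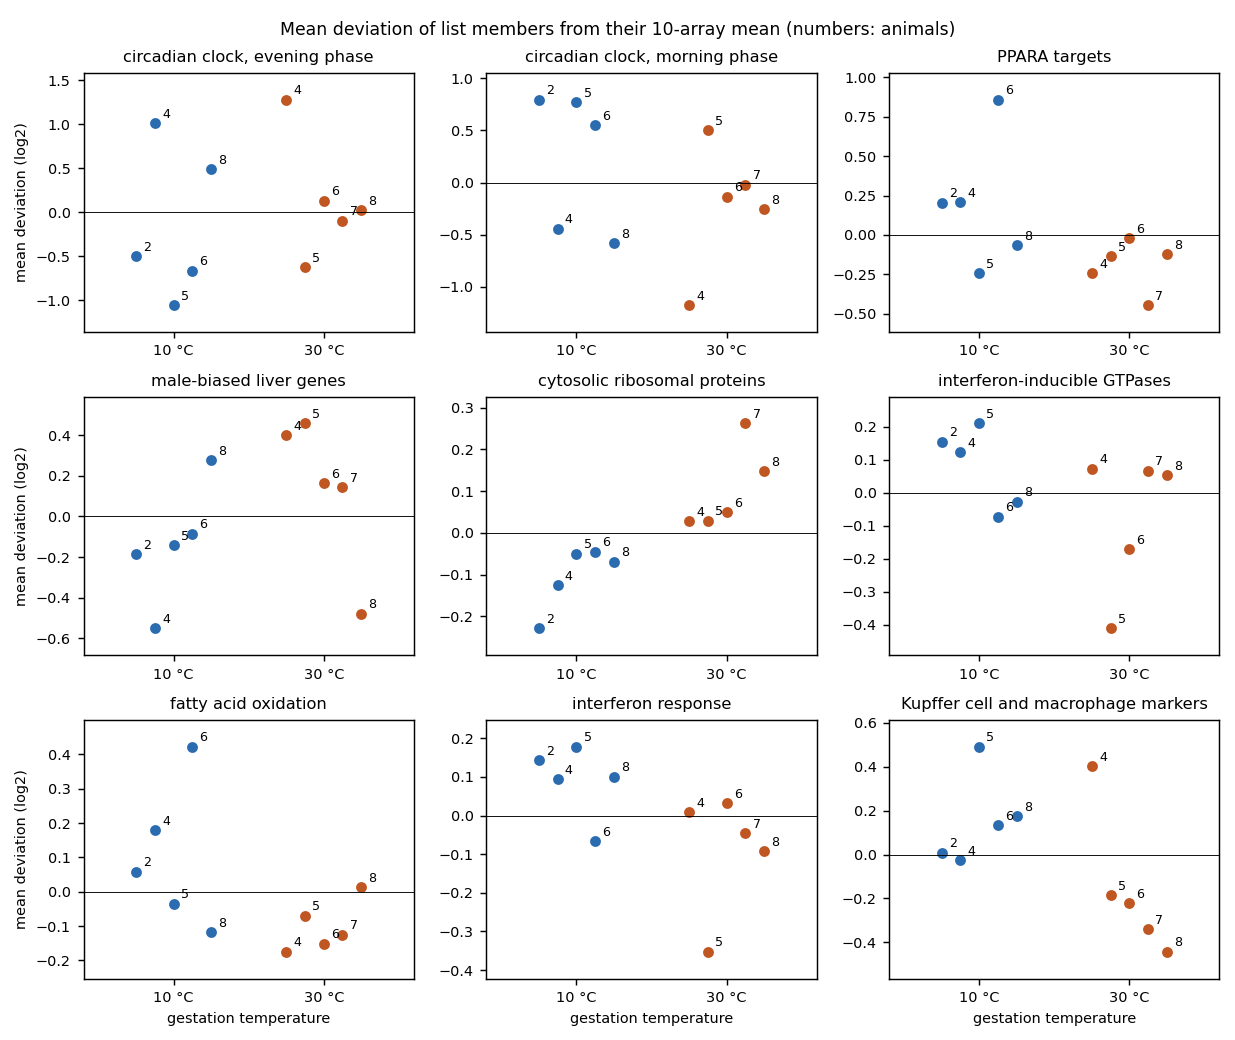
Mean deviation of the members of 9 lists from their 10-array mean, on the log2 scale, for each 10 °C and 30 °C liver, with the animal's number beside each point. The ribosomal proteins are the list whose groups do not overlap. In the PPARA panel 10 °C animal 6 lies far above, and in both interferon panels 30 °C animal 5 lies far below.

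Acute phase proteins, which the liver makes in inflammation, set 1 animal apart. Saa1, a serum amyloid protein, had 7.45, 6.33, 8.31, 11.46 and 7.48 in the 10 °C livers, against 6.90, 7.37, 7.57, 6.93 and 7.53 in the 30 °C livers (0.95 ± 0.54 SE, limma adjusted p = 0.782). The high value is that of 10 °C animal 6, whose mean deviation over the 25 genes of the list was 1.23 while the other 9 livers lay between -0.40 and 0.34. The list as a whole had 11 members higher and 14 lower, with a median of -0.02. This animal also had the highest mean deviation of PPARA targets of the 10 livers. Its sterol (-1.61) and fat synthesis (-0.88) genes were low, but those of 30 °C animal 5 were low as well (-1.81 and -0.75). Whether those 3 features share a source was not tested.

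Complement and coagulation genes were lower in 32 of 45 cases, with a median of -0.09. Of the 6 members at an unadjusted p under 0.05 (7.16% of all clusters) 5 were lower (3.45% of all). Cfb, factor B of the alternative pathway, had 13.14, 12.87, 13.55, 13.81 and 13.23 in the 10 °C livers, against 13.54, 14.11, 13.66, 14.31 and 14.00 in the 30 °C livers (-0.61 ± 0.19 SE, limma adjusted p = 0.662). The groups overlapped through 10 °C animals 5 and 6. Alpha-macroglobulins and serpins were lower in 15 of 20 cases (median -0.11), with Mug2, a murinoglobulin of mouse plasma, at -0.31 ± 0.17 (SE) and the intracellular inhibitor Serpinb6a at 0.35 ± 0.17 (SE).

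Of heat shock proteins and their co-chaperones 21 of 56 were higher and the median was -0.06, with Dnaja2 (above) and the small heat shock protein Hspb6 (0.50 ± 0.17 SE, limma adjusted p = 0.673) as the members of smallest p, both higher. The cold-inducible RNA-binding proteins were higher in 4 of 5 cases with a median of 0.09. Cirbp had 7.41, 7.74, 7.67, 8.10 and 7.52 in the 10 °C livers, against 6.96, 6.96, 6.93, 7.60 and 7.51 in the 30 °C livers (0.50 ± 0.24 SE, adjusted p = 0.743). Rbm3 had 10.98 to 12.04 in 10 °C and 10.41 to 11.78 in 30 °C livers (0.32 ± 0.22 SE, adjusted p = 0.830). In both genes the groups overlapped. The mean level of this list was 10.57 ± 0.13, 10.19 ± 0.11, 10.24 ± 0.27 and 10.42 ± 0.15 at 10, 18, 23 and 30 °C (SD, n = 5 each). It did not follow the order of temperature. In the list of endoplasmic reticulum stress 17 of 25 genes were lower (median -0.09), such as the protein disulphide isomerase Pdia6 (-0.37 ± 0.17 SE) and the co-chaperone Dnajb11 (-0.40 ± 0.19 SE).

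Bile acid and lipoprotein genes had medians of -0.02 over 27 and 0.03 over 27 genes. Cyp7a1, which sets the pace of bile acid synthesis, had 14.47, 13.99, 12.71, 15.64 and 14.47 in the 10 °C livers, against 14.37, 12.77, 16.94, 16.21 and 15.82 in the 30 °C livers (-0.96 ± 0.57 SE, limma adjusted p = 0.797). The 30 °C livers covered the whole range of the 10 °C livers except animal 5. Abcb4, the transporter of phospholipid into bile, differed by 0.54 ± 0.23 (SE, adjusted p = 0.719), with 10 °C animal 6 the highest. Pltp, which transfers phospholipids between lipoproteins, had 10.49 to 12.54 in 10 °C and 7.92 to 12.93 in 30 °C livers (1.32 ± 0.76 SE, adjusted p = 0.782). Its 30 °C range was thus wider than its difference.

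Enzymes of drug and amino acid metabolism lay close to the bulk of the genes. Cytochrome P450 families 1 to 3 were higher in 21 of 45 cases (median -0.02), with Cyp2d40 at -0.48 ± 0.21 (SE, limma adjusted p = 0.719). Conjugating enzymes were higher in 19 of 42 cases (median -0.01), with the glucuronosyltransferase Ugt2b37 at -0.74 ± 0.29 (SE, adjusted p = 0.691). Targets of the antioxidant factor NRF2 were higher in 16 of 27 cases (median 0.02), with the gene of NRF2 itself, Nfe2l2, at 0.42 ± 0.20 (SE, adjusted p = 0.733) and haem oxygenase Hmox1 at 0.65 ± 0.32 (SE, adjusted p = 0.743). Genes of the urea cycle and amino acid breakdown were lower in 27 of 43 cases (median -0.05), with arginase Arg1 at -0.39 ± 0.21 (SE, adjusted p = 0.770). Those of methionine and one-carbon metabolism were lower in 17 of 29 cases (median -0.10), with Cth, which makes cysteine from cystathionine, at -0.50 ± 0.29 (SE, adjusted p = 0.782).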

How the data were processed

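Liver RNA was hybridised to Affymetrix arrays, 1 per mouse, in 4 groups of 5. The authors deposited log2 expression values after RMA, which corrects background, equalises the arrays' distributions by quantiles and summarises probes, in the Transcriptome Analysis Console, per the submitters' processing notes. Versions and the genome build are not given in the sources used here. Quantile steps hide a shift of all genes together, and RMA compresses differences of dim clusters. No depth applies to arrays, and their number limits the precision.

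The values ran from 1.18 to 19.93, and no 2 arrays were identical. Of 28846 rows 6640 were control rows. All 19572 named clusters matched the RefSeq gene table, used for names and neighbours only. limma 3.58.1 in R 4.3.3 (lmFit, eBayes) fitted all 20 arrays with 1 mean per group. The contrast is 10 °C minus 30 °C, two-sided, adjusted by Benjamini-Hochberg over 22206 clusters. The fit was tested on simulated data. Array measures had exact two-sided permutation tests. Each list takes the cluster with the highest mean for a gene. Alternatives are another set of arrays, variance model, weights, covariates, block, normalisation, filter, and leaving out each array.

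The members, the 55 lists and the tests were chosen with earlier results of these data known. Genes are named by rule: the 12 higher and 12 lower with the smallest p, the 6 largest without overlap in each direction, up to 5 members of the 8 lists with the most extreme medians (cell type lists and lists under 5 members aside), up to 2 of other lists, and 17 set by name, some of which are not reported here. Clec2g, Clec2h, Marco and the genes at the level threshold fall outside it and were named after their values were seen. Animal numbers occur in both groups for 4, 5, 6 and 8, but deviations of same-numbered arrays correlated at -0.19 to 0.05, so the numbers do not pair them.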

Additional observations from a re-analysis of the deposited data

Results flagged for a closer look

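Arrays far from the other 4 of their group were looked for in 260 groups of values, by the gap to the nearest array over the group's range, with a critical value of 0.71. In independent groups drawn at random about 1 in 20 would hold such an array, and here 11 were found. Many of these genes were chosen by this same contrast and all share the same animals, so that rate does not apply strictly. Of these 4 belong to 10 °C animal 6: Mlxipl at 11.34 (next 11.98), Ugt2b37 at 8.64 (next 7.41), Fgf21, a fasting hormone of the liver whose mean lies under the negative controls, at 4.64 (next 2.99), and the mean of the positive control rows at 8.83 (next 8.75). In 10 °C animal 5, Scd1 stood low at 19.20 (next 19.57) and Vsig4 high at 9.29 (next 8.51). In 10 °C animal 8, Moxd1 was high at 7.87 (next 4.91). Among 30 °C animals, number 4 had Usp2, a clock-driven ubiquitin protease, at 8.05 (next 5.03) and the spike-in rows at 3.84 (next 3.69), number 6 had Samhd1 at 7.66 (next 7.33), and number 7 had a difference of positive and negative control rows of 4.34 (next 4.18).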

How the results depend on the processing

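The count of called clusters, 0, was 1 in 4 alternatives, each time Pisd-ps3 and lower in 10 °C offspring: with only the 10 arrays in the fit (adjusted p = 0.0415), with quantile normalisation repeated (0.0486), and with p-values adjusted over fewer clusters, those above the negative control mean (0.0292) or the highest such mean of an array (0.0283). Leaving out 1 array gave 0 to 2 calls, 1 without 23 °C animal 2 and 2, Pisd-ps3 and Clec2d, without 23 °C animal 23. Over all alternatives the adjusted p ran from 0.00119 to 0.594 for Pisd-ps3 and from 0.0303 to 0.996 for Clec2d. Clusters at an unadjusted p under 0.05 numbered 1501, 1215 to 1842 when 1 array was left out, 796 and 769 among the clusters kept by the 2 filters, and 958 with the replicate block (0 called), where the numbers do not pair the samples. That block also moved the median of the cytosolic ribosomal proteins to -0.11. Of 114 named genes 107 kept their sign in every alternative and 2 passed in any. The sign turned with the clock score as covariate for Dbp (0.27), Usp2 (0.32), Clock (-0.012) and Arntl (-0.37), and with the background level for Insr (-0.038). Leaving out 1 array, the differences ran from -1.29 to 0.034 for Dbp, -1.04 to 0.25 for Usp2, -0.018 to 0.33 for Clock, -0.36 to 0.63 for Arntl, -0.021 to 0.098 for Insr, -0.097 to 0.43 for Fgf21 and -0.85 to 0.17 for Fasn. Dbp, Usp2, Clock and Arntl are themselves part of the clock score, so their turn with that covariate is in part built in. The cause of the other shifts was not tested. Of 46 lists 43 moved less than the spread between arrays in every alternative. The exceptions were glycogen genes with the clock score as covariate (0.22), cytochrome P450 genes without 30 °C animal 8 (-0.19) and cholangiocyte markers with all measured members (0.02). With 5 arrays per group and a median standard error of 0.18, small differences were beyond detection. Large ones were not called in the main fit either: 0 of the 21 named clusters that differed by over 1 passed. Among these was Pisd-ps3 at -2.21 (limma adjusted p = 0.0604).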

Other observations

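Genes that handle RNA, protein turnover and chromatin had small median differences as lists between 10 °C and 30 °C offspring. Of 71 splicing factors 30 were higher and 41 lower (median -0.05), with the core spliceosome protein Snrpd3 at -0.42 ± 0.14 (SE, limma adjusted p = 0.662) and the splicing regulator Tra2a at -0.71 ± 0.25 (SE, adjusted p = 0.677). Tra2a had 8.98 to 9.81 in 10 °C and 9.80 to 10.71 in 30 °C livers. Translation initiation and elongation factors were higher in 15 of 38 cases (median -0.03), yet the 2 members at an unadjusted p under 0.05 were higher. These were Eif3a, a subunit of the initiation factor eIF3 (0.45 ± 0.15 SE, adjusted p = 0.662), and Eif6, which keeps ribosomal subunits apart (0.32 ± 0.14 SE, adjusted p = 0.719). Proteasome subunits were higher in 22 of 36 cases (median 0.04), with Psmb6, a catalytic subunit, at -0.25 ± 0.12 (SE, adjusted p = 0.730).

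Chromatin and DNA methylation enzymes were higher in 22 of 53 cases (median -0.04). The histone methyltransferase Kmt2d had 5.41 to 5.85 in 10 °C and 5.83 to 6.17 in 30 °C livers (-0.38 ± 0.14 SE, limma adjusted p = 0.679), and the demethylase Kdm1a differed by -0.38 ± 0.18 (SE, adjusted p = 0.739). Imprinted genes were higher in 12 of 17 cases (median 0.07), with Mest at 0.49 ± 0.29 (SE, adjusted p = 0.804), and 20 measured ones lay under the negative controls. Cell cycle genes were higher in 11 of 19 cases (median 0.03), with 28 measured ones under the controls. Among thyroid hormone and glucocorticoid targets Dio1, the deiodinase that activates thyroid hormone, had 10.17 to 10.90 in 10 °C livers, against 10.78, 10.93, 9.42, 9.90 and 7.06 in the 30 °C livers (0.87 ± 0.53 SE, adjusted p = 0.804). The wide 30 °C range rests on animal 8.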
